A study of Mus musculus with 18 samples.

Results

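The genes described here serve antigen presentation on major histocompatibility complex (MHC) class I in sorted mouse dendritic cells and related myeloid cells, with and without an activated BRAF allele. They are the peptide transporter subunits Tap1 and Tap2, the loading factor Tapbp, the light chain B2m, the trimming peptidase Erap1, the class I heavy chains H2-M2 and H2-M3, and 3 genes tied to cross-presentation, Wdfy4, Rab43 and Apol7c. The set was chosen by name with earlier results of these data known, so counts of its members called are no independent evidence. Each gene was read from a probe set that maps to 1 gene symbol, and where a gene had several, from the one with the highest mean. All 10 were measured, of 19752 genes with such a probe set. Wdfy4 had 2 probe sets and the other genes had 1 each.

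The study profiled RNA from 18 one-colour arrays in 8 groups, 9 arrays of each genotype. BRAF mice carried the BRAFV600E(CA-flox) allele together with CD11c-Cre. Their WT counterparts carried the same floxed allele without Cre, so neither genotype was free of the engineered allele. The CD11c promoter drives Cre in dendritic cells and also in some macrophages. Bone marrow derived dendritic cells (BMDC) were cultured without further treatment from marrow of mice aged 5 weeks and sorted as live CD11c+ CD11b+ cells, with 3 arrays per genotype. From mice aged 14 weeks came 3 populations sorted from organs, CD11b+ cells of liver and CD11b+ or CD103+ cells of lung, with 2 arrays per genotype each. The labels do not say that arrays of a group came from separate animals or cultures, so every p-value measures only the spread between these arrays, which may be technical. Groups of 2 or 3 arrays can also lie apart by sampling alone, so a lack of overlap below is a description and not a test.

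Class I molecules are built in the endoplasmic reticulum. Tap1 and Tap2 pump peptides made by the proteasome into it, Erap1 trims them, tapasin (Tapbp) holds the transporter next to the empty heavy chain, and B2m completes the molecule that goes to the surface. In cross-presentation, dendritic cells, above all the type 1 subset marked in lung by CD103, load this pathway with protein taken up from outside. Wdfy4 and Rab43 are required for efficient cross-presentation of cell-associated antigen by mouse type 1 dendritic cells, and Apol7c is a pore-forming protein of the apolipoprotein L family that acts on phagosomes in mouse dendritic cells.

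RefSeq promoter windows of build GRCm38.p6, 250 bases before to 50 bases after each start, were available for 9 of the 10 genes. They were searched on both strands for an interferon response motif (GAAA, any 2 bases, GAAA), a composite motif of ETS and interferon regulatory factors (GGAA, any 2 bases, GAAA), an AP-1 motif (TGANTCA) and an NF-kB motif (GGGA, any 2 bases, TTCC). Of 32851 such windows, 3.44% held the first, 2.72% the second, 7.81% the third and 1.47% the last. Matches occurred in 3 of the genes. The B2m window held the interferon response motif at bases -139 to -130 and the NF-kB motif, read on the opposite strand, at -126 to -117, with no overlap. Apol7c held the interferon response motif on the opposite strand at -55 to -46 and again at -49 to -40, so that these matches overlap. Erap1 held it on the opposite strand across its start, from -4. No searched motif occurred in the windows of Tap1, Tapbp, Wdfy4, Rab43, H2-M2 or H2-M3. Only these exact patterns were searched, so variants of the same motifs are not marked. The H2-M2 stretch below holds ggggaattcc, which has G where the NF-kB pattern has A, so this window is not shown to lack an NF-kB site. The bases before the start of B2m, Apol7c and H2-M2 are shown because these genes span the range of behaviour in the arrays, from the narrowest range to the 2 genes lower in BRAF in the mean effect. The Apol7c start lies 20 bases inside the outer end of its RefSeq gene record, so the stretch shown overlaps that record by 20 bases. The Erap1 start lies 280 and the Wdfy4 start 8789 bases inside their records, so no window at the outer end of these 2 records was searched. Rab43 had 4 starts, from 0 to 2407 bases inside its record. Capitals mark the motif matches, and a match is a run of letters, not evidence of binding.
B2m, chr2:122147437-122147686, plus strand: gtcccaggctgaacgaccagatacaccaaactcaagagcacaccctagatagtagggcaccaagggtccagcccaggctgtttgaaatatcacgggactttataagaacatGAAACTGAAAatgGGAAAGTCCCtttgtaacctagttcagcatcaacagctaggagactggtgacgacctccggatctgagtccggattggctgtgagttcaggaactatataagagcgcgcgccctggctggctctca
Apol7c, chr15:77533316-77533565, minus strand: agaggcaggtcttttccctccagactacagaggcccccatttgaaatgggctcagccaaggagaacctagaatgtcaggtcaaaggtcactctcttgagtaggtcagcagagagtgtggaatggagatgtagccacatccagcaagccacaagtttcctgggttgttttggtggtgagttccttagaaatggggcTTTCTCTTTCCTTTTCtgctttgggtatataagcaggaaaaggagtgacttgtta
H2-M2, chr17:37483555-37483804, minus strand: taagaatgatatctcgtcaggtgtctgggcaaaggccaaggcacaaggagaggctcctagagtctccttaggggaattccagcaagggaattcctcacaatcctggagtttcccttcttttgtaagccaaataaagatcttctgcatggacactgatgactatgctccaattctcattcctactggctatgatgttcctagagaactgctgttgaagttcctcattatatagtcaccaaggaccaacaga

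The deposited intensities were used on the log2 scale, and all levels below are log2 intensities, which can be compared between arrays but not between genes. The sorts carried the markers they are labelled by. Itgae, which encodes the CD103 chain, read 10.60 and 11.84 in BRAF lung CD103+ arrays and 11.42 and 12.18 in WT lung CD103+ arrays, and no other array exceeded 7.65. Itgam, which encodes CD11b, read 8.21 and 8.39 in BRAF and 6.87 and 6.90 in WT lung CD103+ arrays, and 9.32 or above in all others. It was thus higher in BRAF than in WT lung CD103+ arrays without overlap. The part of this in the lung CD103+ comparisons below was not tested. Type 1 dendritic cell markers (8 of 8 measured) averaged 11.2 to 11.6 in BRAF and 11.5 to 11.7 in WT lung CD103+ arrays. Total Braf signal averaged between 8.65 and 8.89 in the 4 BRAF groups and between 8.33 and 8.92 in the 4 WT groups, and the probes do not tell the mutant transcript from the normal one. BRAF BMDC replicate 2 and WT liver CD11b+ replicate 3 stood apart, with interquartile ranges of log2 intensity of 1.90 and 1.92 against 2.41 to 2.99 on the others. The BMDC and liver values of the 10 genes that rest on those arrays are also given with both left out. That leaves 1 WT liver CD11b+ array, so the spread of that group then drops out of the error of the fit, which is pooled over groups.

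Genotype was compared within each population by limma across 15365 genes, all 10 members included, with Benjamini-Hochberg adjustment over all of them and a threshold of 0.05. The peptide loading genes and H2-M3 did not pass it anywhere, whereas Apol7c was lower in BRAF lung CD11b+ cells, and Apol7c and H2-M2 were lower in BRAF cells when the 4 genotype effects were averaged. In lung CD11b+ cells 1 of 10 members was called, against 0.338% of all genes tested. Limma called none of the 10 in BMDC, in the liver or in lung CD103+ cells. The shares of all genes called in those populations were 0.521%, 0.215% and 0.0846%. At an unadjusted p under 0.05 the members numbered 2 in BMDC, 1 in liver CD11b+, 3 in the lung CD11b+ sort and 2 in the lung CD103+ sort. The shares of all genes at that level were 6.65%, 14.1%, 6.71% and 4.26% in the same order. For the mean of the 4 effects 2 of 10 members were called, both lower in BRAF, against 0.989% of all genes tested. Neither mean stands for an effect shown in every population. Apol7c entered the test almost wholly through WT arrays, and its mean includes BMDC, where both genotypes were near the floor of the arrays. The H2-M2 genotypes overlapped in the liver.

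**Figure D1:**
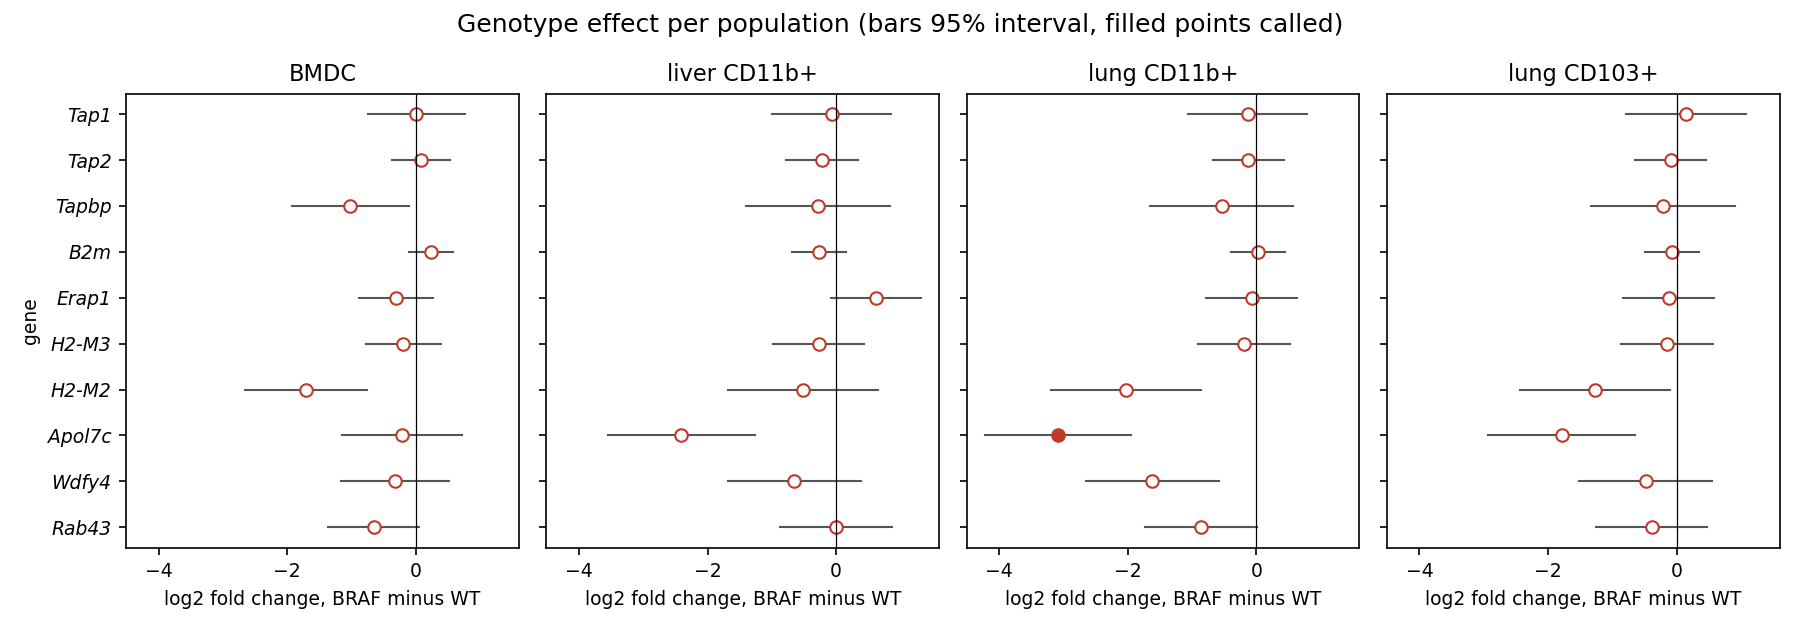
Log2 fold change, BRAF minus WT, of the 10 genes in each of the 4 populations, with 95% confidence intervals from limma and filled points for genes past the adjusted threshold. The filled point is Apol7c in lung CD11b+ cells at -3.08, where the BRAF arrays are near the floor, and Apol7c in BMDC rests on values near the floor in both genotypes.

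Tap1 and Tap2, the transporter subunits, lie close together on chromosome 17 (GRCm38.p6, chr17:34187556-34197225 and chr17:34204479-34216321). Tap1 read 9.20, 7.95 and 9.40 in BRAF BMDC and 8.86, 9.06 and 8.60 in WT BMDC. It read 9.11 and 9.71 in BRAF liver CD11b+ cells against 9.92 and 9.04 in WT ones, and 9.27 and 9.32 in BRAF lung CD11b+ cells against 9.39 and 9.47 in WT ones. In lung CD103+ cells the BRAF arrays gave 9.84 and 10.76 and the WT arrays 9.93 and 10.39. The genotypes overlapped in BMDC, liver and lung CD103+ cells. In lung CD11b+ cells the BRAF arrays lay below the WT arrays by a margin inside the error of the fit, -0.14 ± 0.44 (log2 fold change ± SE, adjusted p = 1.00 by limma). Over the 4 populations the mean genotype effect on Tap1 was -0.01, with a 95% interval from -0.46 to 0.43. The low BMDC value, 7.95, is that of the BRAF array of narrow spread, and without both narrow arrays the Tap1 difference was 0.46 ± 0.27 in BMDC and -0.51 ± 0.36 in the liver, with neither called.

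Tap2 spanned 8.11 to 9.09 over all 18 arrays, less than 1 log2 unit. Its genotype effect was 0.07 ± 0.21 in BMDC and -0.22 ± 0.26 in the liver. In lung it was -0.13 ± 0.26 for CD11b+ and -0.09 ± 0.26 for CD103+ cells. None passed the threshold, and the mean effect had an interval from -0.36 to 0.17. The Tap2 difference without those arrays was 0.24 ± 0.18 in BMDC and -0.47 ± 0.25 in the liver, again uncalled. Both transporter subunits had their highest group means in lung CD103+ cells of either genotype.

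B2m, on chromosome 2 (chr2:122147687-122153082), had the narrowest range of the 10, from 12.81 to 13.51 over all arrays, a 1.63-fold range. Its mean lay at percentile 99.9 of all genes, near the top of the arrays' range, and whether the signal is compressed there was not tested. The highest value belonged to BRAF BMDC replicate 2, one of the arrays of narrow spread. In the liver the BRAF arrays read 13.02 and 12.87 and the WT arrays 13.18 and 13.23. The groups did not overlap there, but the difference of -0.27 ± 0.20 did not pass (adjusted p = 0.522 by limma), nor did that of -0.29 ± 0.17 without the narrow arrays, where BMDC gave 0.08 ± 0.13. The interval of the mean effect ran from -0.22 to 0.18.

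Tapbp (chr17:33919478-33929290) read 9.37, 7.51 and 9.73 in BRAF BMDC and 9.98, 10.03 and 9.67 in WT BMDC. The low value is that of the BRAF array of narrow spread, and BRAF replicate 3 lay within the WT range. The BMDC difference was -1.02 ± 0.43 (adjusted p = 0.678 by limma) and was -0.34 ± 0.24 without both narrow arrays. Tapbp read 9.79 and 9.71 in BRAF lung CD11b+ cells and 10.23 and 10.35 in WT ones. The genotypes were apart there, yet the difference of -0.54 ± 0.52 did not pass (adjusted p = 1.00). Its mean effect was -0.51 ± 0.25 (adjusted p = 0.569). Without the narrow arrays the mean was -0.43 ± 0.13 (adjusted p = 0.141) and the liver difference -0.65 ± 0.32.

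Erap1, the aminopeptidase of the endoplasmic reticulum (chr13:74639573-74693205), read 8.47 and 8.21 in BRAF liver CD11b+ cells and 8.15 and 7.29 in WT ones. BRAF liver arrays were above WT ones without overlap, although the lower WT value is that of the narrow array. The difference was 0.62 ± 0.33 (adjusted p = 0.392 by limma) and 0.19 ± 0.31 without the narrow arrays. In the other 3 populations its estimates lay between -0.31 and -0.07, and without the narrow arrays the BMDC estimate was -0.09 ± 0.23.

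H2-M3, a class I heavy chain that presents N-formylated peptides in mice (chr17:37270234-37274485), ranged from 7.45 to 9.45. Its genotype effect was -0.19 ± 0.27 in BMDC and -0.27 ± 0.33 in the liver. In lung it was -0.19 ± 0.33 for CD11b+ and -0.15 ± 0.33 for CD103+ cells. None passed the threshold. The BMDC estimate was 0.14 ± 0.22 and that in the liver -0.47 ± 0.30 without the narrow arrays, and the lung CD103+ estimate turned to 0.25 with BRAF replicate 1 left out and to 0.04 with WT replicate 3 left out. The mean effect was -0.20, with an interval from -0.54 to 0.14. Tap1, Tap2, Tapbp, B2m, Erap1 and H2-M3 gave 0 calls by limma in the mean of the 4 effects as well, and 0 at an unadjusted p under 0.05.

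**Figure D2:**
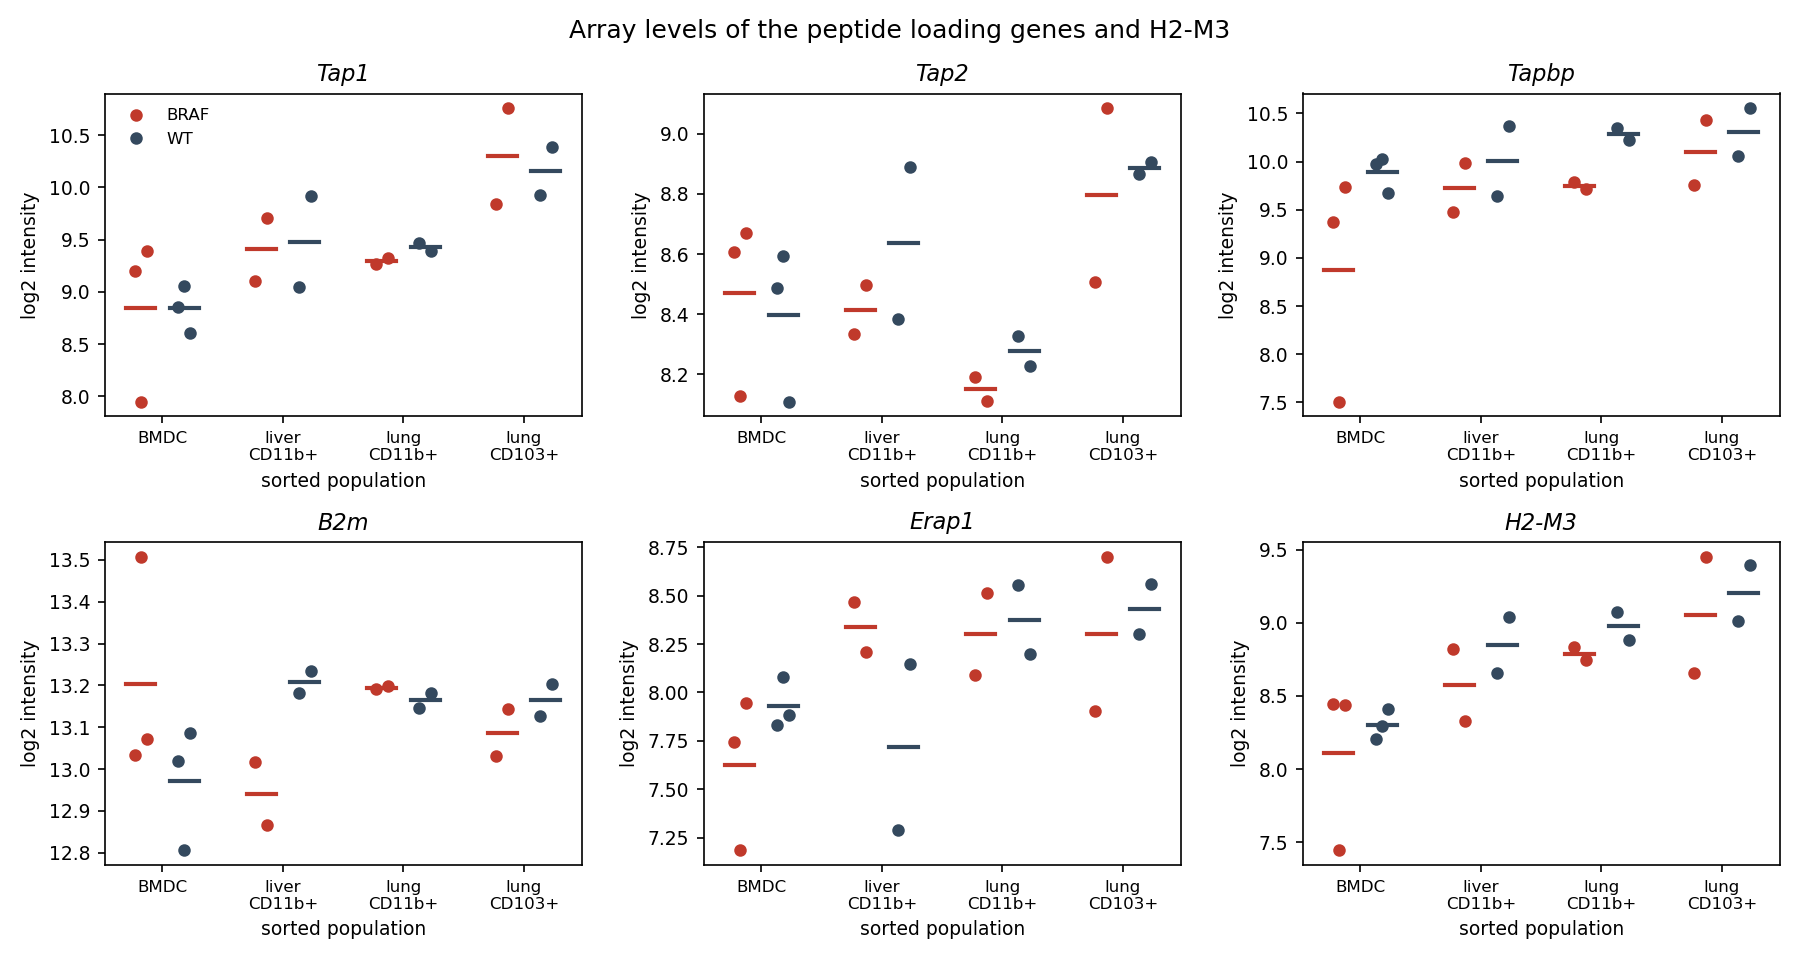
Log2 intensity of the 5 peptide loading genes and H2-M3 on every array, by sorted population, with BRAF arrays left of WT arrays and a line at each group mean (3 arrays per BMDC group, 2 per organ group). The vertical axes differ: B2m spans 12.81 to 13.51, and the low Tapbp point at 7.51 is BRAF BMDC replicate 2.

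Apol7c (chr15:77524852-77533335) gave the largest genotype difference of the 10. In lung CD11b+ cells it read 5.30 and 5.63 in BRAF arrays and 8.37 and 8.73 in WT arrays. The groups were far apart, and the measured log2 fold change was -3.08 ± 0.53 (adjusted p = 0.0215 by limma). Both BRAF arrays read under the level that 30% of probe sets fall under, so the difference is also given as a bound on the means. With the BRAF arrays held at that level, the WT mean exceeded the BRAF mean by 2.81 on the log2 scale. This bound carries no sampling error, and the 95% interval of the fit ran from -4.23 to -1.94. In liver CD11b+ cells the BRAF arrays read 4.93 and 4.80, both under that level too, and the WT arrays 6.97 and 7.57. These did not overlap either, but the difference of -2.41 ± 0.53 did not pass (adjusted p = 0.0897 by limma). Without the narrow arrays it was -2.71 ± 0.61, again uncalled, with 1 WT liver array left. The same bound on the means was 1.51 there, and the 95% interval of the fit with all arrays ran from -3.55 to -1.27. The error is pooled over the 8 groups, so arrays of other populations also moved this result. It passed without BRAF BMDC replicate 2 (adjusted p = 0.0339 by limma). Leaving out a WT lung CD103+ array leaves 1 in that group, whose wide Apol7c spread then drops out of that error.

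In lung CD103+ cells Apol7c read 5.58 and 6.17 in BRAF arrays and 6.59 and 8.74 in WT arrays. Both BRAF values lay under both WT values, the WT arrays differed widely from each other, and the difference of -1.79 ± 0.53 did not pass (adjusted p = 0.382 by limma). Without WT lung CD103+ replicate 1, the lower of the WT arrays, it was -2.86. That leaves 1 WT array, and the wide spread of this group then drops out of the error of the fit. In BMDC the values were 5.06, 6.01 and 4.60 in BRAF arrays and 5.56, 5.27 and 5.47 in WT arrays, all under that level, so no difference is read there. The test that the genotype effect differs among the 4 populations did not pass for Apol7c (adjusted p = 0.317, F test in limma). Averaged over the populations its measured effect was -1.87 ± 0.26 (adjusted p = 0.00228), and -2.05 ± 0.26 without the 2 narrow arrays. Both the F test and this mean include the BMDC arrays and the BRAF liver and lung CD11b+ arrays, where Apol7c was under that level.

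The Apol7c values in BRAF arrays are near the floor of the arrays. The level that 30% of probe sets fall under, a stand-in since the values carry no detection call, lay between 5.60 and 6.11 on the 18 arrays, and Apol7c exceeded it on 7 of them, the 6 WT organ arrays and 1 BRAF lung CD103+ array. It therefore entered the test almost wholly through WT arrays, unlike the other 9 genes, which exceeded that level on all 18. With no filter the lung CD11b+ difference was still called (adjusted p = 0.0226). The call also rests on few arrays: without WT lung CD11b+ replicate 1, WT replicate 3 or BRAF replicate 1 it was -3.26, -2.91 and -2.92, with adjusted p-values of 0.192, 0.176 and 0.179. Of 3 other Apol genes that could be tested, none was called by limma in any of the 4 populations, with 0 at an unadjusted p under 0.05.

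Markers of mature dendritic cells were read on the same arrays. The mean of 7 of the 8 listed markers (Ccr7, Fscn1, Ccl22, Ccl17, Relb, Socs2 and Cd200) was 7.18 and 7.94 in BRAF lung CD11b+ arrays and 9.46 and 9.42 in WT ones. It was 6.79 and 6.51 in BRAF liver CD11b+ arrays and 7.65 and 8.15 in WT ones. In lung CD103+ cells it was 7.68 and 8.67 in BRAF arrays and 9.18 and 9.43 in WT arrays. BRAF lay below WT in all 3 organ populations. It did so in BMDC too, at 8.03 to 8.20 in BRAF against 9.12 to 9.30 in WT. All 7 markers exceeded the 30th percentile on at least 1 array of every BRAF group. Limma called 2 of the 7, Ccr7 and Fscn1, lower in lung CD11b+ cells and 5 of 7 lower in the mean effect. The list was known from earlier results of these data and is no independent evidence, and its part in the Apol7c difference was not tested. In lung CD11b+ cells 4 of 4 markers of conventional dendritic cells averaged 7.29 and 8.23 in BRAF arrays and 8.87 and 8.94 in WT arrays, and 3 of 4 markers of B cells averaged 7.10 and 6.54 in BRAF arrays and 8.62 and 7.89 in WT arrays. Of 14 marker lists, 5 lay lower and 2 higher in BRAF lung CD11b+ arrays without overlap. The others that were lower were those of type 2 dendritic cells (9.49 to 10.13 in BRAF against 10.48 to 10.53 in WT) and lung epithelium (7.11 to 7.31 against 7.84 to 8.26). Those that were higher were the lists of alveolar macrophages (7.30 to 9.20 in BRAF against 6.22 to 6.95 in WT) and neutrophils (6.67 to 6.93 against 5.74 to 5.77). In the liver 7 lists lay lower and 2 higher in BRAF, the higher ones being monocytes (on average 9.83 in BRAF against 8.60 in WT) and neutrophils (6.48 to 6.85 against 5.86 to 5.98). Lower in the liver were type 1 (7.94 to 8.51 in BRAF against 8.56 to 8.67 in WT), conventional and mature dendritic cells, B cells, T cells, NK cells and lung epithelium. The 4 NK cell markers did not pass the filter, and their list read 4.74 to 5.21 in BRAF and 5.22 to 5.69 in WT. All are under the level that 30% of probe sets fall under, so no difference is read there. The T cell and lung epithelium lists in BRAF liver arrays, at 5.64 to 5.80 and 5.39 to 6.11, were near it, as were the WT neutrophil lists. WT liver CD11b+ replicate 3 is an array of narrow spread. In lung CD103+ cells 1 list lay lower, mature dendritic cells, and 2 higher, macrophages (8.48 to 10.22 in BRAF against 6.35 to 7.94 in WT) and neutrophils (6.10 to 6.52 against 5.17 to 5.77). In BMDC 3 lay lower, mature dendritic cells, macrophages and alveolar macrophages, and 2 higher, type 1 and conventional dendritic cells. The part of these lists in the differences of Apol7c, H2-M2, Wdfy4 and Rab43 was not tested. Small groups of arrays can separate by sampling alone. The share of all genes without overlap was not computed beside these counts, so they are not read as changes in the cells sorted. In arrays of sorted bulk cells, fewer cells of a type and less RNA per cell cannot be told apart.

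H2-M2, a nonclassical class I heavy chain of the H2-M region (chr17:37480851-37483554), was lower in BRAF on average. In BMDC it read 6.90, 7.17 and 6.34 in BRAF arrays and 8.67, 8.03 and 8.82 in WT arrays. In lung CD11b+ cells it read 8.22 and 8.11 in BRAF arrays and 9.66 and 10.73 in WT arrays. Neither pair of groups overlapped, and the differences were -1.70 ± 0.44 and -2.03 ± 0.54, which did not pass one by one (adjusted p = 0.169 and 0.179 by limma). The BMDC difference was -1.89 ± 0.47 with the narrow arrays left out (adjusted p = 0.154). With array weights both passed, at -1.59 (adjusted p = 0.000909 by limma) and -2.03 (0.0439). These weights were estimated from the same arrays, and BRAF BMDC replicate 2 got 0.109. Both arrays of each organ group got equal weights, so the weights cannot tell a better array from a worse one there.

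In lung CD103+ cells H2-M2 read 7.26 and 6.21 in BRAF arrays and 8.64 and 7.37 in WT arrays, again without overlap (-1.27 ± 0.54, adjusted p = 1.00 by limma). In liver CD11b+ cells it read 6.61 and 7.67 in BRAF arrays and 8.29 and 7.02 in WT arrays. The liver groups overlapped (-0.52 ± 0.54, adjusted p = 0.651), and without the 2 narrow arrays the estimate was 0.12. The mean of the 4 effects passed, at -1.38 ± 0.26 (95% interval -1.94 to -0.82, adjusted p = 0.0199), and at -1.27 ± 0.27 without the narrow arrays (adjusted p = 0.0367). Leaving out WT lung CD11b+ replicate 3 alone brought the adjusted p to 0.0588, with an estimate of -1.25.

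Wdfy4, a BEACH domain protein (chr14:32959547-33193855), was brightest in lung CD103+ cells. It read 11.32 and 11.69 in BRAF lung CD103+ cells and 11.65 and 12.33 in WT ones, and 8.87 and 9.30 in BRAF lung CD11b+ cells against 10.83 and 10.58 in WT ones. BRAF arrays lay below WT arrays in the lung CD11b+ cells, but the difference of -1.62 ± 0.48 did not pass (adjusted p = 0.248 by limma). That difference was called with array weights (adjusted p = 0.0212), with the lung CD11b+ groups fitted alone (0.0423) and without the 2 narrow arrays (0.0254). BRAF liver CD11b+ arrays read 8.71 and 8.72 and WT ones 8.51 and 10.22, and BRAF BMDC arrays read 8.93, 8.16 and 9.60 and WT ones 9.28, 9.51 and 8.89. Genotypes overlapped in both. Without the narrow arrays the Wdfy4 difference was 0.04 ± 0.27 in BMDC and -1.51 ± 0.36 in the liver (adjusted p = 0.107). The mean effect was -0.77 ± 0.23 (adjusted p = 0.166), and -0.89 ± 0.15 without the 2 narrow arrays, where it passed (adjusted p = 0.0146). It also passed under quantile normalisation (-0.79, adjusted p = 0.0392 by limma). Without WT liver CD11b+ replicate 3 alone it was -0.99, with 1 array left in that group, whose wide Wdfy4 spread then drops out of the error.

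Rab43, a small GTPase of vesicle traffic (chr6:87788853-87812164), read 9.77 and 10.11 in BRAF lung CD103+ cells and 10.08 and 10.59 in WT ones. In lung CD11b+ cells it read 9.19 and 8.74 in BRAF arrays and 9.87 and 9.78 in WT arrays. BRAF arrays lay below WT arrays in the lung CD11b+ cells, and the difference of -0.86 ± 0.41 did not pass (adjusted p = 0.75 by limma). It read 8.77 and 8.64 in BRAF liver arrays and 8.10 and 9.31 in WT ones, and 7.80, 6.86 and 8.10 in BRAF BMDC and 8.39, 8.46 and 7.86 in WT BMDC. Both of these overlapped. The mean effect of -0.48 ± 0.19 did not pass (adjusted p = 0.413), nor did that of -0.54 ± 0.13 without the narrow arrays (adjusted p = 0.0568). In BMDC the difference of -0.65 ± 0.33 did not pass (adjusted p = 0.737), and with array weights it was -0.51 and did (0.032). Without the narrow arrays it was -0.29 ± 0.23 in BMDC and -0.60 ± 0.30 in the liver, neither called.

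**Figure D3:**
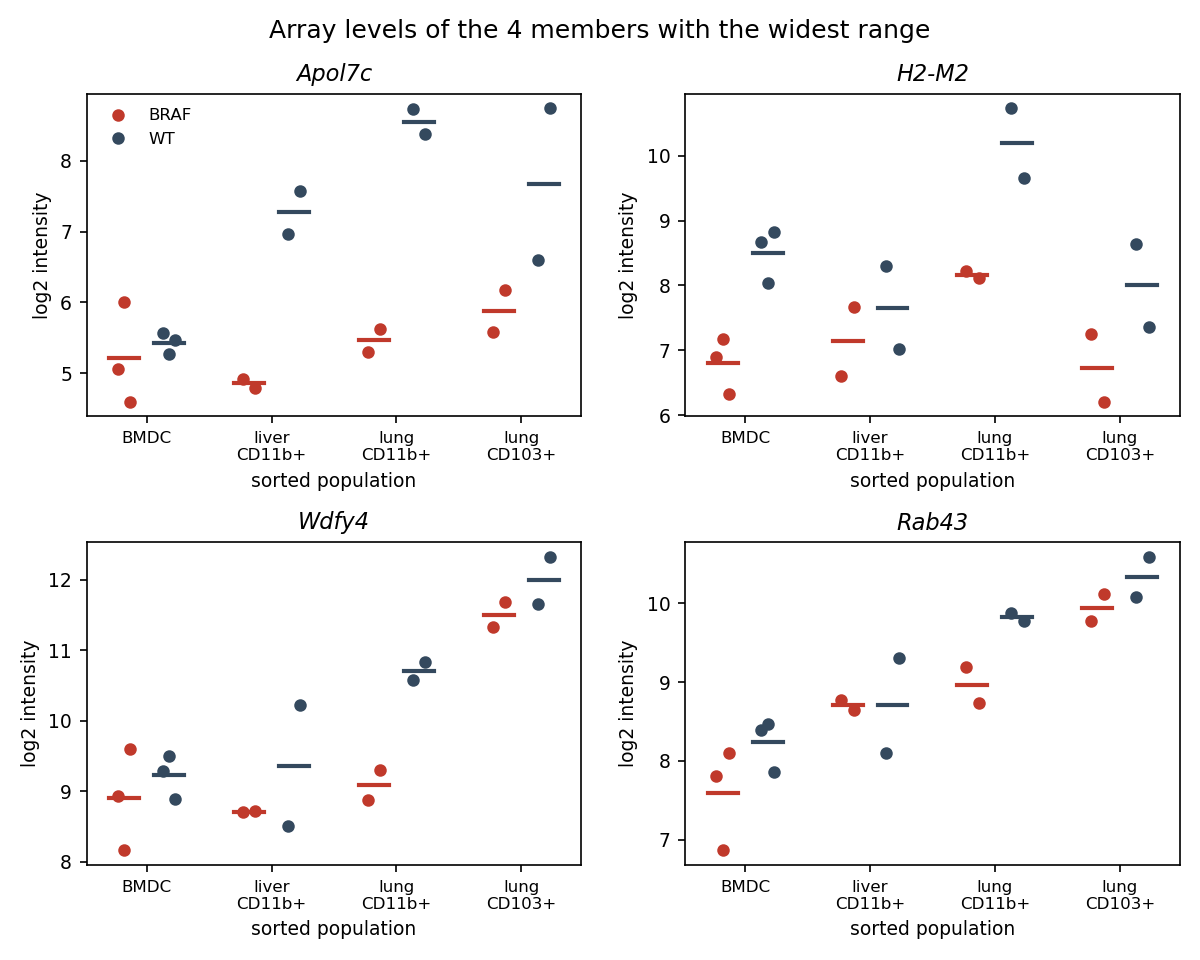
Log2 intensity of Apol7c, H2-M2, Wdfy4 and Rab43 on every array, by sorted population, with BRAF arrays left of WT arrays and a line at each group mean (3 arrays per BMDC group, 2 per organ group). Apol7c in lung CD11b+ cells lies at 5.30 and 5.63 in BRAF and at 8.37 and 8.73 in WT, and Wdfy4 is highest in lung CD103+ cells of both genotypes.

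The lung sorts were then compared within each genotype, which asks how the CD103+ cells differ from the CD11b+ cells of the same organ. In BRAF lungs limma called 1 of 10 members, Wdfy4, higher in CD103+ cells, against 1.21% of all genes tested. In WT lungs it called 1 of 10, H2-M2, lower in CD103+ cells, against 3.75% of all genes tested. The Wdfy4 difference was 2.42 ± 0.48 in BRAF lungs (adjusted p = 0.0188) and 1.28 ± 0.48 in WT lungs (adjusted p = 0.244). The CD103+ arrays were above the CD11b+ arrays without overlap in both genotypes. The second Wdfy4 probe set gave group means of 11.31 and 9.17 in BRAF and 11.76 and 10.33 in WT lung CD103+ and CD11b+ cells. The test of whether the Wdfy4 difference itself differs between genotypes gave 1.14 ± 0.69 (adjusted p = 1.00), so the genotypes were not shown to differ. The call in BRAF lungs was lost when any one of the 4 BRAF lung arrays was left out, with estimates from 2.21 to 2.63 and adjusted p-values from 0.0512 to 0.24, and on median-centred arrays (2.44, adjusted p = 0.0507).

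H2-M2 ran the other way. It differed by -1.43 ± 0.54 between CD103+ and CD11b+ cells in BRAF lungs (adjusted p = 0.419 by limma) and by -2.19 ± 0.54 in WT lungs (adjusted p = 0.0341). The CD103+ arrays lay below the CD11b+ arrays without overlap in both genotypes. The WT call was lost under quantile normalisation (-2.06, adjusted p = 0.0637), when the lung groups were fitted alone (0.0982), and without WT lung CD11b+ replicate 3 (-1.66, 0.403) or replicate 1 (-2.73, 0.0512) or WT lung CD103+ replicate 3 (-1.55, 0.394).

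Tap1, Tap2 and Rab43 gave positive differences that did not pass the test. Tap1 differed by 1.01 ± 0.44 in BRAF and 0.73 ± 0.44 in WT lungs (adjusted p = 0.577 and 0.687 by limma). Tap2 differed by 0.64 ± 0.26 in BRAF and 0.61 ± 0.26 in WT lungs (adjusted p = 0.488 and 0.351). Rab43 differed by 0.98 ± 0.41 in BRAF and 0.51 ± 0.41 in WT lungs (adjusted p = 0.523 and 0.864). B2m, Erap1 and H2-M3 differed by at most 0.27 in either genotype, Tapbp by 0.35 in BRAF and 0.02 in WT lungs, and Apol7c by -0.88 in WT lungs. None of the 10 genes passed the test that the genotype effect differs between the lung populations, nor did any of the 15365 genes (0%). At an unadjusted p under 0.05 there were 0 of the 10 and 372 of all genes there.

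**Figure D4:**
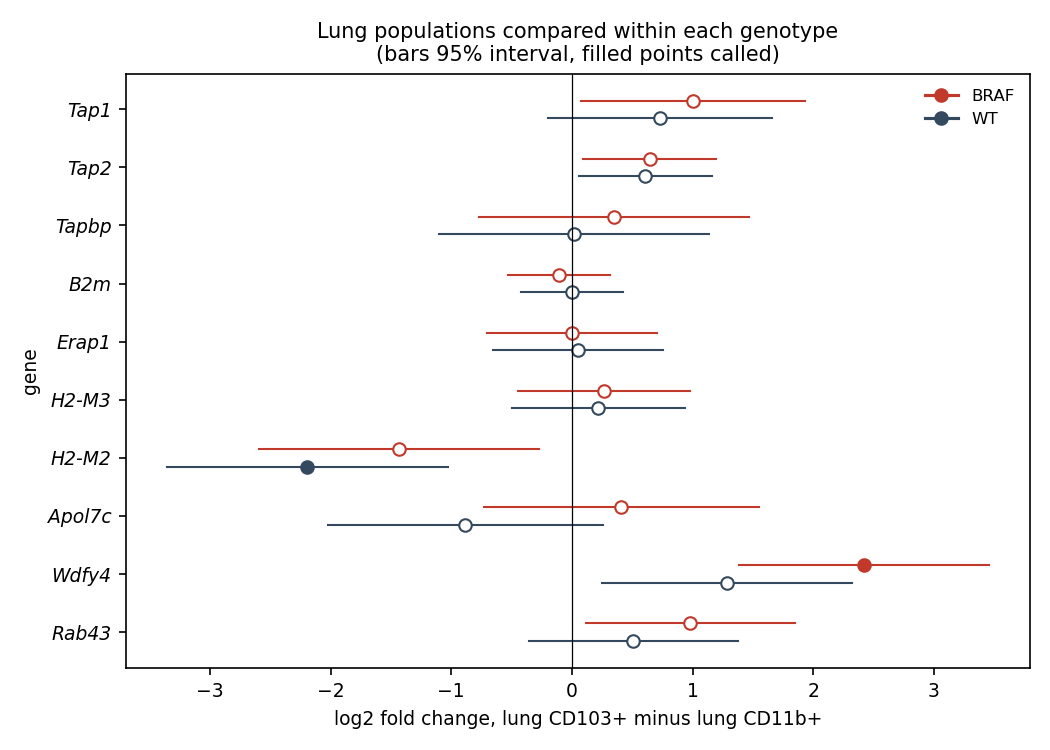
Log2 fold change, lung CD103+ minus lung CD11b+ cells, of the 10 genes in BRAF (red, upper) and WT (dark, lower) lungs, with 95% confidence intervals from limma and filled points past the adjusted threshold. Wdfy4 lies to the right of 0 in both genotypes and is filled in BRAF at 2.42, and H2-M2 lies to the left in both and is filled in WT at -2.19.

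Some genes listed for cross-presentation also differed between the lung sorts. Xcr1, Clec9a and Tlr3 are on the list of type 1 dendritic cell markers too, so their difference is no independent evidence on cross-presentation. Of 24 tested genes for uptake and endosomal escape, 4 were called higher and 0 lower in CD103+ cells of BRAF lungs, and 4 higher and 3 lower in those of WT lungs, with list medians of -0.04 and -0.03 against -0.02 and 0.07 over all genes. Higher in both genotypes were Xcr1, a chemokine receptor (4.91 ± 0.37 in BRAF and 5.32 ± 0.37 in WT), Clec9a, a receptor for dead cells (3.92 ± 0.54 and 4.10 ± 0.54), Tlr3, an RNA sensor (2.79 ± 0.32 and 3.38 ± 0.32), and Ly75, an endocytic receptor (2.03 ± 0.44 and 2.71 ± 0.44). The NADPH oxidase subunit Cybb, the mannose receptor Mrc1 and the kinase Syk were the genes called lower in WT lungs, at -3.91, -4.16 and -1.23. Irf8, the transcription factor of type 1 dendritic cells, differed by 1.90 ± 0.49 in BRAF lungs (adjusted p = 0.0932 by limma) and by 2.42 ± 0.49 in WT lungs (adjusted p = 0.00922). Macrophage markers (6 of 7 measured) averaged 8.48 and 10.22 in BRAF and 6.35 and 7.94 in WT lung CD103+ arrays, and 10.36 and 11.45 in BRAF and 10.32 and 11.03 in WT lung CD11b+ arrays. Their part in these differences was not tested.

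Liver and lung CD11b+ cells were compared in the same way, using the same lung arrays as above. In BRAF mice limma called none of the 10 members, with 0 at an unadjusted p under 0.05, against 0.176% of all genes tested. In WT mice it called 1 of 10, H2-M2, against 2.08% of all genes tested. H2-M2 in liver differed from that in lung by -1.03 ± 0.54 in BRAF (adjusted p = 0.79) and by -2.54 ± 0.54 in WT mice (adjusted p = 0.031). WT liver arrays lay below WT lung arrays without overlap. The WT call was lost under quantile normalisation (-2.11, adjusted p = 0.0824), with array weights (0.0772), without the 2 narrow arrays (-3.18, 0.0511), and without WT lung CD11b+ replicate 1 or 3, WT liver CD11b+ replicate 1 or 3 or WT BMDC replicate 1, with estimates from -3.18 to -1.90 over single arrays left out. Both H2-M2 calls between populations share the WT lung CD11b+ arrays, which gave the highest H2-M2 group mean, 10.19 ± 0.76 (SD, n = 2).

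The order of the group means shows how the genes vary beyond single contrasts. For Apol7c the 3 WT organ groups came first, at 8.55 ± 0.25 in lung CD11b+, 7.67 ± 1.52 in lung CD103+ and 7.27 ± 0.43 in liver CD11b+ cells (SD, n = 2 each). These overlapped in turn, and a gap without overlap separated them from the other 5 groups, whose means ran from 4.86 to 5.87 and have no order, since 11 of their 12 arrays read under the level given above. For H2-M2 a gap without overlap lay below WT lung CD11b+ cells, and the other 7 means ran from 6.73 to 8.51 with each overlapping the next. For Wdfy4 the lung CD103+ groups led, with BRAF at 11.51 and WT at 11.99, then came WT lung CD11b+ cells at 10.71, then the other 5 groups from 8.71 to 9.36. For Rab43 the lung CD103+ groups had the highest means, with BRAF at 9.94 and WT at 10.33. WT lung CD11b+ cells followed at 9.82 and overlapped the BRAF lung CD103+ arrays. A gap without overlap lay below WT lung CD11b+ cells, and BRAF BMDC came last at 7.59. Tap1 had its gap below the lung CD103+ groups, whose means were 10.30 in BRAF and 10.16 in WT.

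Likeness between genes was described by Pearson r over the 18 arrays, with no test, since arrays of one group share a population and genotype. BRAF BMDC replicate 2, an array of narrow spread, gave the lowest value for Tap1, Tapbp, Erap1, Wdfy4, Rab43 and H2-M3 and the highest for B2m. All values of r include that array and were not computed without it, so its part in them is not known. Among the members Wdfy4 and Rab43 were the most alike pair (r = 0.887), followed by Rab43 and H2-M3 (0.879) and Tap1 and Rab43 (0.849). Tap2 and H2-M2 were the least alike (-0.455). Over all genes tested, Tap1 was most like Slc66a2 (0.941) and Psmb9, a subunit of the immunoproteasome (0.926), and Tap2 was most like Irf9 and Stat2, partners in interferon signalling (0.803 and 0.802). Wdfy4 was most like Tbc1d8 (0.964) and Tbc1d9 (0.959), Rab43 like Camk1d (0.984), Tapbp like Syngr2 (0.978), Erap1 like F11r (0.91), H2-M3 like Acvrl1 (0.933) and B2m like COX2 (0.806). Apol7c was most like Ccdc170 (0.948), Siglecg (0.903) and Fscn1, an actin bundling protein of mature dendritic cells (0.878), although it read under that level on 11 of the 18 arrays. Within the 9 BRAF and 9 WT arrays these values were 0.794 and 0.947, 0.834 and 0.874, and 0.548 and 0.826. H2-M2 was most like Ppp2r3a (0.865).

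The rest of the class I pathway was read from lists of genes. By limma, 0 of 12 further class I heavy chains, 0 of 7 loading chaperones, 0 of 6 trimming peptidases, 0 of 7 immunoproteasome genes and 0 of 24 genes of cross-presentation were called between BRAF and WT in any single population. Between populations, the heavy chain H2-M5 was higher in lung CD103+ than CD11b+ cells of WT mice (1.33 ± 0.29, adjusted p = 0.0156) and the peptidase Tpp2 lower in liver than lung CD11b+ cells of WT mice (-1.18 ± 0.27, adjusted p = 0.0354, and -0.80, 0.0987 without the narrow arrays). At an unadjusted p under 0.05 the genotype counts in BMDC were 2, 1, 0, 0 and 4 in that order of lists, and in liver CD11b+ cells 2, 0, 3, 0 and 4, where 6.65% and 14.1% of all genes did so. Without the narrow arrays 1 gene of these lists was called between genotypes in BMDC, the heavy chain H2-T24, higher in BRAF and named after its value was seen. The list medians in BMDC were 0.08 for heavy chains, -0.25 for chaperones and -0.50 for the immunoproteasome, against 0.00 for all genes, and 0.12, -0.20 and -0.15 without the narrow arrays. In liver CD11b+ cells they were -0.36, 0.03 and -0.03, against 0.08 for all genes, and -0.23, -0.13 and -0.35 without the narrow arrays. The classical heavy chains H2-K1 and H2-D1 had no probe set that maps to 1 symbol and were not analysed here.

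Psmb9 averaged 8.60 in BRAF and 8.82 in WT BMDC, and Psmb8 and Psmb10, the other catalytic subunits of the immunoproteasome, differed by -0.44 ± 0.31 and -0.50 ± 0.36 there. None passed the test, and without the narrow arrays the 3 gave 0.08 for Psmb9, -0.22 for Psmb8 and -0.15 for Psmb10. Nlrc5, the transactivator of class I genes, read 9.51 to 9.56 in BRAF and 10.15 to 10.16 in WT liver CD11b+ arrays. The liver groups did not overlap, but the difference of -0.62 ± 0.20 did not pass (adjusted p = 0.213 by limma), nor did that of -0.63 without the narrow arrays (0.252). In the other 3 populations Nlrc5 differed by 0.27 ± 0.16 or less. Of the 12 regulators tested, 1 was called between genotypes, Relb, an NF-kB subunit, lower in the mean of the 4 effects (-0.54 ± 0.12, adjusted p = 0.0386), where the median of the 12 was -0.09. Relb was also lower in liver than lung CD11b+ cells of WT mice (-1.11 ± 0.24, adjusted p = 0.0321, and -0.99, 0.128 without the narrow arrays). Batf3, a factor of type 1 dendritic cells, was not called in any population, and its lowest estimate was -1.05 ± 0.34 in liver CD11b+ cells (adjusted p = 0.216).

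Interferon response genes, read beside the class I genes because interferons induce both, differed between genotypes in BMDC. Of 11 tested, limma called 4 higher in BRAF BMDC (Ifit1, Ifit2, Ifit3 and Oas2, from 1.50 to 1.92) and 0 in liver CD11b+ cells, with list medians of 1.50 and -1.14. At an unadjusted p under 0.05 there were 9 of 11 in each. In lung their medians were 0.15 for CD11b+ and 1.02 for CD103+ cells, with no call by limma and 3 and 7 genes at an unadjusted p under 0.05. Ifit1, Ifit2, Ifit3 and Oas2 were also called for the genotype effect in BMDC minus that in the liver. With the narrow arrays left out 5 of 11 were called higher in BRAF BMDC (Ifit1, Ifit3, Irf7, Oas2 and Rsad2), 1 lower in BRAF liver CD11b+ cells (Oas2) and 5 for the difference (Ifit3, Irf7, Mx2, Oas2 and Rsad2). The list median of that difference was 2.72 against -0.11 over all genes, with all arrays. For the members this comparison gave 0 calls of 10 by limma, against 0.137% of all genes tested, and 2 at an unadjusted p under 0.05, against 18.5% of all genes. Tap1 differed by 0.08 ± 0.56 and Tap2 by 0.29 ± 0.33 there, and by 0.97 ± 0.44 and 0.72 ± 0.31 without the narrow arrays, uncalled. Over all 4 populations, the F test for a difference of the genotype effect called 0 of 10 members, against 0.124% of all genes tested, and 1 was at an unadjusted p under 0.05, against 9.1% of all genes.

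**Figure D5:**
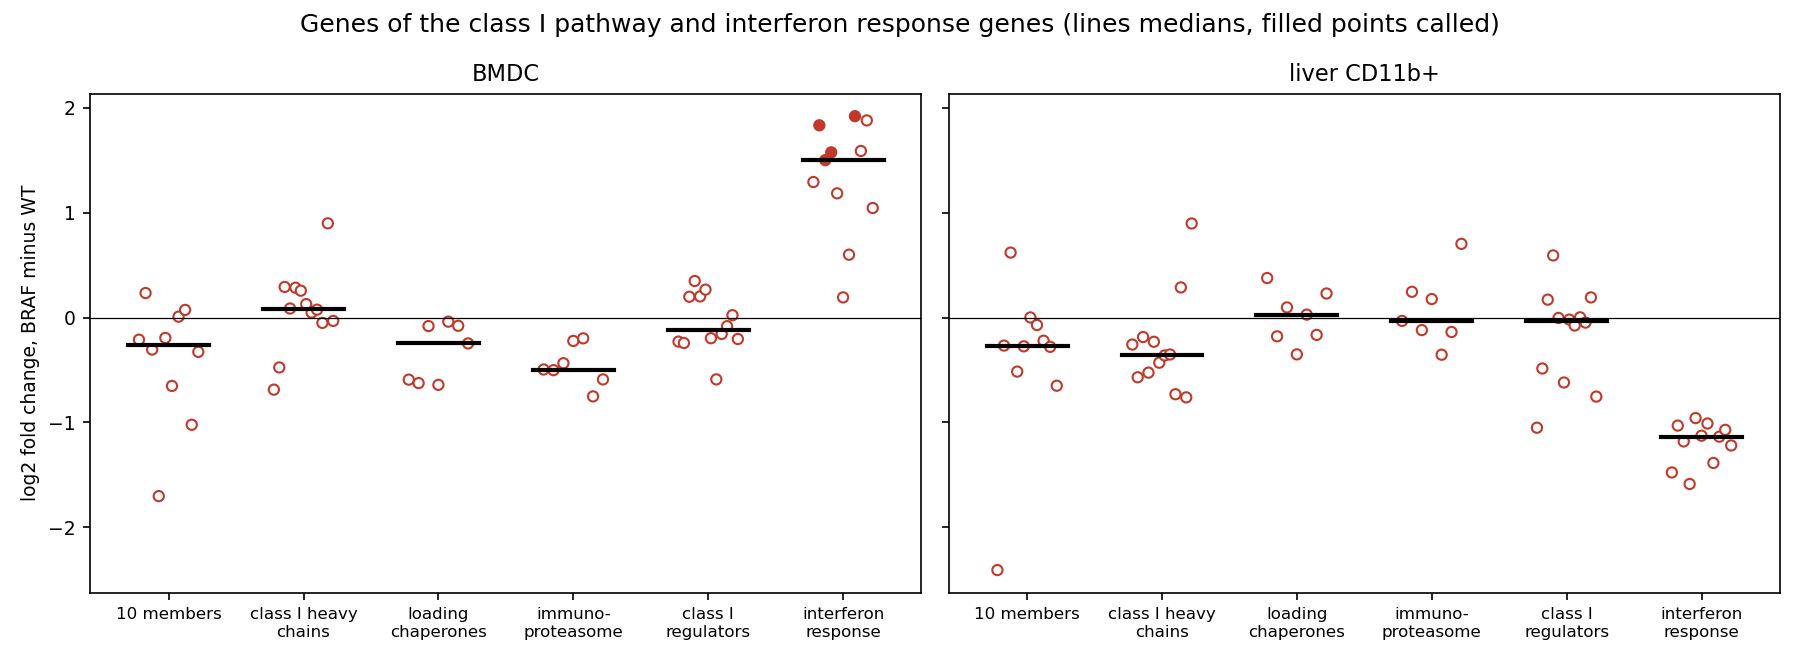
Log2 fold change, BRAF minus WT, in BMDC (left) and liver CD11b+ cells (right) for the 10 genes described here and for 5 lists, with a point per gene, a line at each median and filled points past the adjusted threshold. The interferon response list lies above 0 in BMDC (median 1.50, 4 filled) and below it in liver (median -1.14, 0 filled), while the medians of the class I lists lie between -0.50 and 0.08.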

How the data were processed

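Expression was read from a table of processed intensity values that the authors deposited for 18 one-colour gene arrays. The background correction and normalisation behind them are not given in the sources read. The deposited intensities were taken to log2 with no further normalisation. Of 24922 probe sets, 21425 carried 1 gene symbol, 1399 several, and 2098 were not listed in the platform annotation used. The highest-mean probe set stood for each of 19752 genes. Genes above the 30th percentile of probe sets on at least 2 arrays (15365) were fitted as 8 group means in limma 3.58.1 (R 4.3.3), with p-values adjusted by the Benjamini-Hochberg method over all genes and a threshold of 0.05. The 10 genes, the other lists and the tests were chosen with earlier results of these data known. The text names all 10 genes, listed genes that were called (at most 3 per list and direction between populations) and a fixed few regulators and proteasome subunits. Ly75 was added after its values were seen. Markers of the sorts and Braf are quoted as checks. Promoters came from RefSeq (GRCm38.p6). The fit was tested on simulated data. Alternatives covered scaling, filters, probe set choice, array weights, the groups fitted and each array left out.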

Additional observations from a re-analysis of the deposited data

How the results depend on the processing

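The direction of 29 of 50 genotype values of the 10 genes held in every alternative run, and that of the other 21 changed in at least 1. With array weights the calls numbered 3 in BMDC, 3 in lung CD11b+ cells, 1 in the F test among populations, 0 for WT liver against lung CD11b+ cells and 2 for WT lung CD103+ against CD11b+ cells. With only the compared groups fitted they numbered 2 for genotype in lung CD11b+ cells and 0 for WT lung CD103+ against CD11b+ cells. Without the 2 arrays of narrowest spread the last-named comparison gave 2, genotype in lung CD11b+ cells 2 and WT liver against lung CD11b+ cells 0. Median centring gave 0 for BRAF lung CD103+ against CD11b+ cells. With single arrays left out, calls ranged from 0 to 1 for genotype in the liver and in either lung population, for the F test and for lung CD103+ against CD11b+ cells in BRAF and in WT, from 0 to 2 for WT liver against lung CD11b+ cells and from 1 to 3 for the mean of the 4 effects. A lone array left in a group was assumed to vary like the other groups. The cause of these changes was not tested.

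Genotype values changed sign without the narrow arrays for H2-M2 in liver (0.123), Rab43 in liver (-0.601), Wdfy4 in BMDC (0.04), H2-M3 in BMDC (0.137) and Erap1 in the mean effect (-0.023), and under quantile normalisation for Rab43 in liver (-0.333), all uncalled. Over single arrays left out, estimates ran from -0.605 to 0.1 for Apol7c in BMDC (under the 30th percentile level on every array there), -1.15 to 0.123 for H2-M2 in liver, -0.601 to 0.603 for Rab43 in liver, -0.679 to 0.04 for Wdfy4 in BMDC and -1.51 to 0.205 for Wdfy4 in liver. Same-numbered arrays were not shown to be pairs (correlations of deviations from group means 0.469, -0.231 and -0.399 in BMDC, 0.22 and 0.159 between the lung sorts). With the replicate number as a block, H2-M2 in WT lung CD103+ against CD11b+ cells kept -2.19 with an adjusted p of 0.053. Among the 5 loading genes and H2-M3, a call appeared in 2 alternatives, Tap2 in WT liver against lung CD11b+ cells under quantile normalisation (0.78, adjusted p = 0.041) and Tapbp in BMDC with array weights (-0.54, 0.0238). With 2 or 3 arrays a group, the number of arrays limits the precision throughout.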
